A study of Mus musculus with 16 samples.

Results

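Endothelial cells of the mouse heart with a deletion of either Klf2 or Klf4 were compared, as 1 pool of single knockouts, with cells of Cre control animals. The single knockouts comprised 8 libraries, 4 with endothelial deletion of Klf2 (K2KO) and 4 with endothelial deletion of Klf4 (K4KO), and the controls comprised 4, so 12 of the 16 libraries of the study entered the comparison. The 4 libraries with both genes deleted were not compared and entered only the estimate of the spread. The quantity tested was the mean of the K2KO and K4KO group means minus the control mean, for each of 23816 genes of the 43629 in the table.

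All mice were of the C57BL/6J background and 8 to 10 weeks old, all carried the Cre recombinase and were studied on day 6 after tamoxifen, and the cells were microvascular endothelium captured on beads that bind CD31. Each library pooled 2 mice. The sources used here do not name the promoter that drives Cre. Nothing in the labels says whether pools shared a litter or a day, so the p-values measure the spread between these pools. Values are scaled counts, that is gene reads divided by 1 factor per library, and changes are differences of log2(value + 1).

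Klf2 and Klf4 encode Krüppel-like zinc finger transcription factors that laminar blood flow induces in endothelium through the MEKK3, ERK5 and MEF2 pathway. Both bind CACCC-type elements, both are known to hold down inflammatory adhesion genes and to keep up anticoagulant and vasodilator genes, and each can stand in for the other in part. A gene that depends on the dose of both factors would move the same way in either single knockout, and the pooled comparison addresses such genes.

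Among the genes that passed the main test, the neighbouring selectin genes Sele and Selp changed most evenly in both knockouts. That result depended on the setting, as given below. The RefSeq promoter windows of both are shown here (GRCm38.p6, 250 bases before to 50 after the gene start, 5′ to 3′). Sele lies at chr1:164047984-164048283 on the plus strand and Selp at chr1:164115014-164115313 on the plus strand. Capitals mark a CACCC match on either strand, written GGGTG where it lies on the other strand.
Sele promoter: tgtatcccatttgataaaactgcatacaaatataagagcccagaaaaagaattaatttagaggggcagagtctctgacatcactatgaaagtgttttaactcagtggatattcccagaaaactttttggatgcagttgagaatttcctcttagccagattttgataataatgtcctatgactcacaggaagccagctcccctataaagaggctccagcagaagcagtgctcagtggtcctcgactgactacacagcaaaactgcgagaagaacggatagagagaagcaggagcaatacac
Selp promoter: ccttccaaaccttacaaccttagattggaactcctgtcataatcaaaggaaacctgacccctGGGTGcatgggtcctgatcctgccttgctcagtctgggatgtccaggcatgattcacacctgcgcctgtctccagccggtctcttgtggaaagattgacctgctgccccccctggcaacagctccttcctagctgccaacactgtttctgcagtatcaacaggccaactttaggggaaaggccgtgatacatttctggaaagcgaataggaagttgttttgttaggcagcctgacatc
The Selp window held 1 match, 188 to 184 bases before the gene start, and the Sele window held none. Neither window held an exact match, on either strand, to the kappa B consensus GGGRNNYYCC (R is A or G, Y is C or T, N is any base). Sites that depart from this consensus were not searched for, so kappa B sites of other sequence may be present. A CACCC match on either strand was present in 57.5% of all 32851 promoter windows of this length, and a kappa B match in 8.46%.

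Some libraries stood apart. Reads per library numbered 23.5 to 24.3 M (megareads) in controls, 32.4 to 51.0 M in K2KO and 21.1 to 25.4 M in K4KO. K2KO 2 and K4KO 1 had reads in 29670 and 29602 genes, against 21088 to 23425 in the other 10 libraries, and 4243 and 4507 of the 14951 genes at 0 in those 10 had reads there. K4KO 4 stood apart in clock genes and control 3 in immediate early genes, as given below. K2KO numbers are column numbers of the deposited table and do not name single samples.

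**Figure D1:**
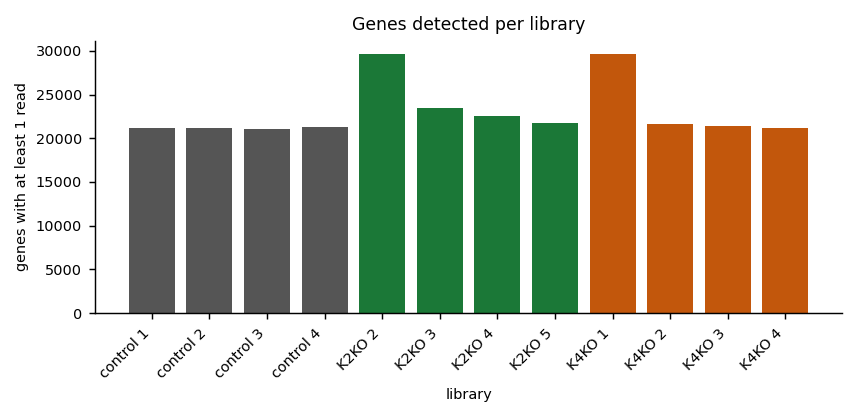
Number of genes with at least 1 read in each of the 12 libraries (bars from 0, grey for control, green for K2KO, orange for K4KO). K2KO 2 and K4KO 1 lie at 29670 and 29602 and the others between 21088 and 23425.

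The level of each targeted gene was checked against the labels. Klf2 stood at 3080, 3389, 3378 and 3571 in K2KO, at 7980, 8869, 10990 and 9108 in K4KO, and at 5538, 6597, 10705 and 6066 in controls. All K2KO values lay below every control, and K4KO and control values overlapped. Klf4 stood at 5088, 5756, 6780 and 5654 in K4KO, at 11143, 11086, 12192 and 13121 in K2KO, and at 7987, 8960, 13342 and 8476 in controls. All K4KO values lay below every control, and K2KO values lay within the control range. Pooling thus joined one group with low and one with high values for each gene: the pooled log2 difference was -0.33 for Klf2 (two-sided exact permutation p = 0.440, 8 against 4 libraries) and -0.20 for Klf4 (exact permutation p = 0.533). The smallest p this design allows is 0.00404.

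In the pooled comparison 5 genes were called higher and 0 lower (limma, Benjamini-Hochberg adjusted p below 0.05, 0.021% of the genes tested). At an unadjusted p below 0.05, 1082 were higher (4.54%) and 500 lower (2.1%). Other tests of the same comparison called 2 (edgeR), 10 (limma on the 12 libraries alone) and 31 genes (DESeq2, 15 higher and 16 lower). Same-numbered control and K4KO libraries deviated together, and with that link as a replicate block 15 genes were called, 10 higher and 5 lower.

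Sele and Selp, which encode E-selectin and P-selectin, the endothelial receptors on which leukocytes begin to roll, rose in the pooled comparison. Sele stood at 1084, 810, 1682 and 1226 in controls, at 2041, 2007, 2485 and 1956 in K2KO, and at 1893, 1987, 2111 and 2097 in K4KO. Every single knockout library lay above every control. The pooled log2 change was 0.83 ± 0.13 (SE, limma adjusted p = 0.0139), a rise of 1.78-fold, with 0.86 in K2KO (adjusted p = 0.0159) and 0.80 in K4KO (adjusted p = 0.0463).

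Selp stood at 865, 811, 1289 and 703 in controls, at 1596, 1883, 2001 and 1560 in K2KO, and at 1371, 1427, 1407 and 1652 in K4KO. Again no single knockout value overlapped the controls, of which control 3 was the highest for both genes. The pooled log2 change was 0.84 ± 0.13 (limma adjusted p = 0.0139), with 0.97 in K2KO (adjusted p = 0.00592) and 0.71 in K4KO, which did not pass on its own (adjusted p = 0.0974). The difference between K2KO and K4KO did not pass the test for Sele (adjusted p = 0.998) or Selp (adjusted p = 0.831).

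Both calls depended on the setting. In 22 of 29 alternatives each gene kept an adjusted p below 0.05, and the pooled change stayed between 0.66 and 1.01 for Sele and between 0.72 and 1.02 for Selp. Leaving out control 1 gave adjusted p values of 0.0990 and 0.0977, leaving out control 2 gave 0.0583 and 0.0916, and edgeR gave 0.0539 for both. The weakest value for both was 0.148, with robust limma without a trend, and leaving out control 4 gave 0.0542 for Selp. With edgeR on the 12 libraries the values were 0.108 and 0.0692. Without K2KO 2 and K4KO 1, Sele was at 0.86 with an adjusted p of 0.0569, and without K4KO 4 as well both stood at an adjusted p of 0.124.

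The neighbouring coagulation factor V gene F5 had a pooled log2 difference of -0.16 (adjusted p = 0.907). Of the 8 tested genes within 150 kb of Sele other than Selp, 0 were called, where 0.021% of all genes were. At that share a count of 0 says little about them, and their pooled log2 differences ran from -0.32 to 0.63.

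**Figure D2:**
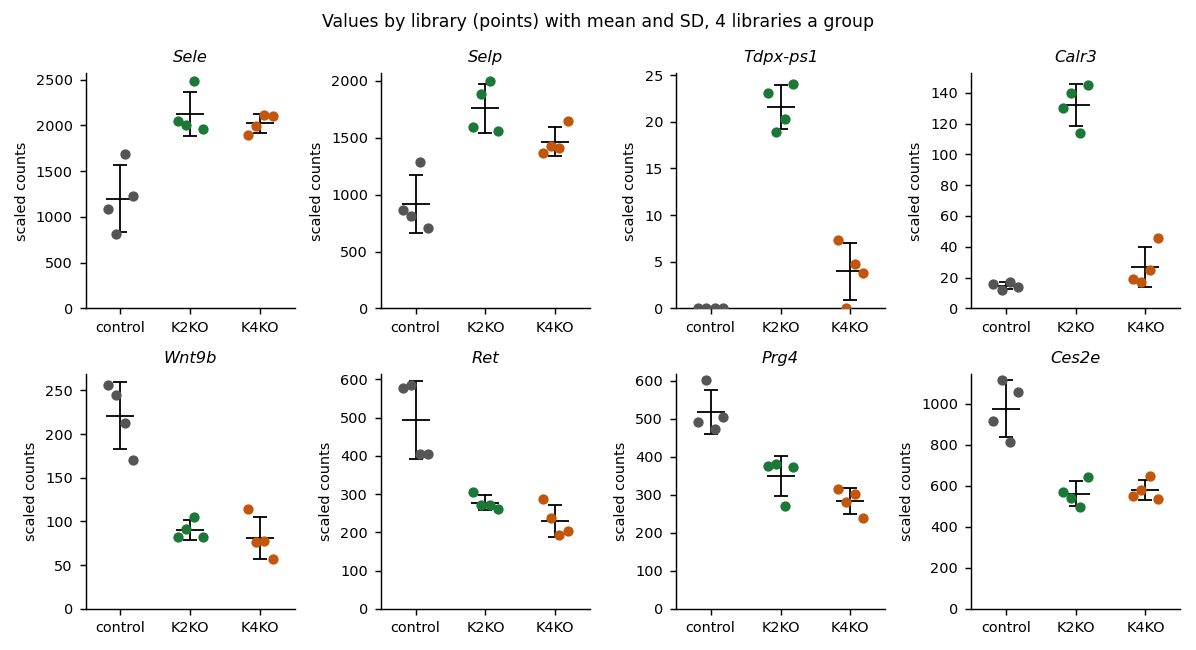
Scaled counts (linear axis from 0) of 8 genes in control, K2KO and K4KO libraries; points are libraries, the horizontal mark is the mean and the bars are the SD (n = 4). Sele and Selp lie above, and Wnt9b, Ret, Prg4 and Ces2e below, every control in all 8 single knockout libraries, whereas Calr3 and Tdpx-ps1 are highest in K2KO.

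The other 3 called genes were far higher in K2KO than in K4KO. Calr3, a calreticulin gene on chromosome 8 at 0.114 Mb from Klf2, stood at 12.1 to 16.9 in controls, 114 to 145 in K2KO and 17.5 to 45.6 in K4KO. Its pooled change of 1.90 was made of 3.08 in K2KO and 0.72 in K4KO, and the difference between the single knockouts was itself called (adjusted p = 0.000143). It was called in all 29 alternatives.

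Tdpx-ps1, a processed pseudogene, had 0 reads in the 4 controls and 127 in the 8 single knockout libraries. Against a floor of 3 reads over the control group it was at least 13.8-fold higher in the pool and 23.4-fold in K2KO. The same floor gave 4.29-fold in K4KO. Its mean was 21.6 in K2KO and 3.96 in K4KO (limma difference adjusted p = 0.0162), and the lowest single knockout value was 0. The K4KO figure rests on few reads, since 1 read was worth 1.19 to 1.46 scaled counts in those libraries. Tdpx-ps1 was called in 27 of 29 alternatives. Gm7809, a processed pseudogene on chromosome 17 that overlaps Zfp943 on the opposite strand, stood at 571 to 744 in K2KO, at 13.1, 16.1, 174 and 139 in K4KO and at 14.5 to 19.8 in controls. Its K4KO libraries thus fell into a low and a high pair, and the difference between the knockouts was called (adjusted p = 0.00286). Gm7809 was called in the pooled comparison in 25 of 29 alternatives. Reads of pseudogenes and of overlapping genes cannot be told apart from those of their partners here.

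**Figure D3:**
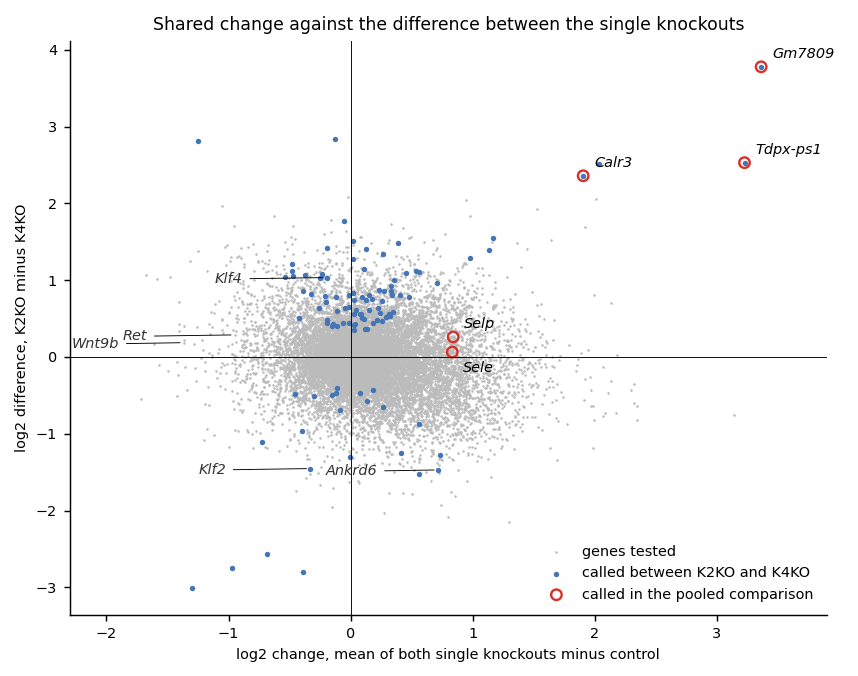
Each point is 1 of 23816 genes: the pooled log2 change (x axis) against the log2 difference K2KO minus K4KO (y axis). Sele and Selp lie near 0 on the y axis, at 0.06 and 0.26, whereas Calr3, Tdpx-ps1 and Gm7809 lie at 2.36, 2.53 and 3.78.

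More genes were called between the single knockouts than in the pooled comparison. Between K2KO and K4KO 106 genes were called (83 higher in K2KO and 23 lower, 0.445%). Between K2KO and control 40 were called (0.168%), and between K4KO and control 15 (0.063%). The comparisons with control share the control libraries. Without K2KO 2 and K4KO 1 the count between the knockouts was 30, and without K4KO 4 alone it was 211.

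Libraries were also compared by rank. In 51 genes all 8 single knockout libraries lay above all 4 controls (0.214%), and in 59 all lay below (0.248%). With a mean of at least 100 these were 16 (0.141%) and 36 (0.317%) of 11365 genes. Of the 495 arrangements of 8 against 4 libraries, a share of 0.00404 separates the groups fully, counting both directions. The 51 and 59 genes were thus close to the number that chance gives. Full separation by itself therefore does not show a change shared by both knockouts. The genes named in this and the next 3 paragraphs were chosen after their values were seen, apart from Wnt9b, Ces2e, Cyp1a1 and Igfbp4, which ranked among the first of their lists.

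Below every control in both knockouts was Wnt9b, a Wnt ligand gene from the list of known targets, at 171 to 256 in controls, 82.2 to 106 in K2KO and 57.0 to 114 in K4KO. Its pooled log2 difference was -1.37 ± 0.43 (adjusted p = 0.508). The carboxylesterase gene Ces2e stood at 814 to 1115 in controls, 497 to 642 in K2KO and 537 to 648 in K4KO, a difference of -0.77 ± 0.31 (adjusted p = 0.666). In a fit of the 12 libraries alone the same differences had adjusted p values of 0.00651 for both genes, since their residual SD was 0.294 and 0.164 there against 0.838 and 0.610 with the libraries lacking both factors.

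The receptor tyrosine kinase gene Ret was at 405 to 585 in controls, 262 to 305 in K2KO and 192 to 287 in K4KO (-0.95, adjusted p = 0.238, and 0.0144 with 12 libraries). Prg4, encoding the lubricant proteoglycan 4, was at 472 to 601, 271 to 380 and 238 to 316 in the same order (-0.72, adjusted p = 0.118, and 0.0376 with 12 libraries). Prg4 overlaps Tpr on the other strand. Cyp1a1, the P450 enzyme that the aryl hydrocarbon receptor induces, was at 220 to 519, 127 to 215 and 55.7 to 177 (-1.41, adjusted p = 0.289). The Golgi membrane gene Golm1 (-0.49) and the costimulatory ligand gene Icosl (-0.44) did not pass (adjusted p = 0.0993 for Golm1), and both passed with the replicate block (0.0461).

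Above every control, besides the selectins, were Chrnb1, a nicotinic receptor subunit (0.39), Scara3, a scavenger receptor (0.42), the septin gene Sept4 (0.28), the insulin-like growth factor binding protein gene Igfbp4 (0.29), the histidine decarboxylase gene Hdc (0.36) and the membrane collagenase gene Mmp14 (0.22). Adjusted p values of these 6 ran from 0.255 to 0.773. Sept4 stood at 3033 to 3340 in controls and 3353 to 4470 in single knockouts, so that the groups were separated by a narrow gap.

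Of 25 tested adhesion and chemokine genes 2 were called, Sele and Selp, where 0.021% of all genes were. The list's median pooled log2 difference was 0.16, against 0.025 over all genes. Its median was 0.59 in K2KO and 0.02 in K4KO. At an unadjusted p below 0.05, 7 were higher and 2 lower, where 4.54% of all genes were higher and 2.1% lower, and the same shares apply to the list counts that follow. The chemokine gene Cxcl12 was at 46419 to 61465 in controls and 35490 to 49375 in single knockouts (-0.38, adjusted p = 0.293). Among 30 known targets of the factors, 1 was called (Sele), 6 were higher and 4 lower at an unadjusted p below 0.05, and the median was -0.03. The protease gene Adamts4 was among them, at 1.83 in K2KO and 0.44 in K4KO.

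In the other function lists none of the members was called apart from Selp among 12 venous genes. Immediate early genes, which tissue dissociation also induces, had a median of 0.29, with 0.48 in K2KO and 0.09 in K4KO. With 1 library left out the pooled median ran from 0.20 to 0.50, the latter without control 3. At an unadjusted p below 0.05, 7 of 26 were higher, against 4.54% of all genes. Egr2 was at 1512 in control 3 and 589 to 686 in the other controls, and at 1395 to 1700 in K2KO and 724 to 1403 in K4KO. Leaving out control 3 raised the number of calls to 34, 33 of them higher, with Egr2, Klf5 and the growth factor gene Hbegf among them. Over lists, the endothelial identity median was -0.05 with 0 of 30 called, and the cell cycle median 0.17 with 0 of 40 called, which was -0.08 without control 2 and 0.47 without control 4.

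Genes of the circadian clock had the lowest median of any function list, at -0.38 over 21 tested members, with 3 higher and 9 lower at an unadjusted p below 0.05 (4.54% and 2.1% of all genes) and 0 called. Without K4KO 4 that median was -0.22, and it was -0.47 in K2KO and -0.19 in K4KO. Arntl, which encodes the activator BMAL1, stood at 103 to 154 in controls, at 494 to 915 in K2KO and at 61.2, 113, 100 and 1322 in K4KO. K4KO 4 was higher than every K2KO library and the other K4KO libraries lay within or below the control range.

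Per2, a repressor of the clock, moved the other way, at 2479 to 4109 in controls, 744 to 1587 in K2KO, 4670, 3899 and 4121 in K4KO 1 to 3 and 309 in K4KO 4. Dbp, an output transcription factor of the clock, was at 2889 to 4812 in controls, 992 to 2315 in K2KO, 4032 to 4581 in K4KO 1 to 3 and 601 in K4KO 4. Over all 21 tested clock genes, 17 or 18 lay outside the control range, on either side, in each K2KO library, and 18 did in K4KO 4. In K4KO 1, 2 and 3 the numbers were 13, 8 and 10. The matching shares over all tested genes were not counted, so these numbers do not show how unusual the clock genes are. The labels do not give the hour of collection, and its part in this pattern was not tested. Of the 9 genes plotted, 6 were chosen after their values were seen and 3 had the smallest p of the list.

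**Figure D4:**
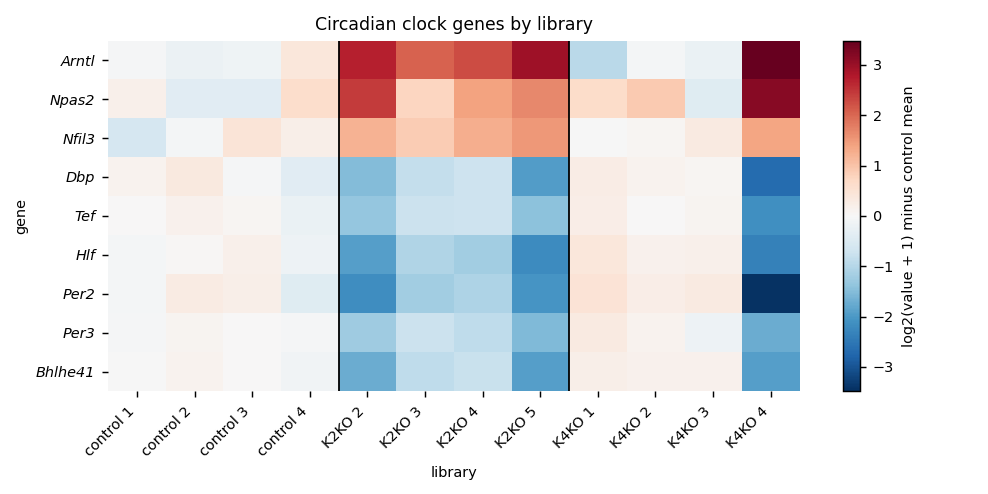
Log2(value + 1) of 9 clock genes in each library minus the control mean (colour scale; red higher, blue lower; vertical lines part the groups). The 4 K2KO libraries and K4KO 4 share one pattern, with Arntl at 494 to 1322, which K4KO 1 to 3, with Arntl at 61.2 to 113, do not show.

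Position on the chromosome was examined because Calr3 lies beside Klf2. Among 374 tested genes within 20 Mb of Klf2, a window chosen after values were seen, 9 were called between K2KO and K4KO (2.41%, against 0.41% of the other genes). Near Klf4 the count was 5 of 311 (1.61%, against 0.425%). Near Klf2, Fam32a (-0.56 in K2KO, -0.05 in K4KO), Mri1 (-1.28 and -0.17) and the lysosomal mannosidase gene Man2b1 (-0.70 and -0.21) were lower in K2KO. Near Klf4, AI464131 was at 127 to 180 in K4KO against 48.9 to 77.8 in the other libraries. Ankrd6 is also on chromosome 4 but lies outside that window and is not among the 5. It stood at 274 to 307 in K4KO and 87.7 to 131 in the other 8 libraries (pooled 0.71, adjusted p = 0.0528, difference adjusted p = 7.69e-05). Apart from Calr3, the genes named here were chosen after their values were seen, as was F5 above.

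**Figure D5:**
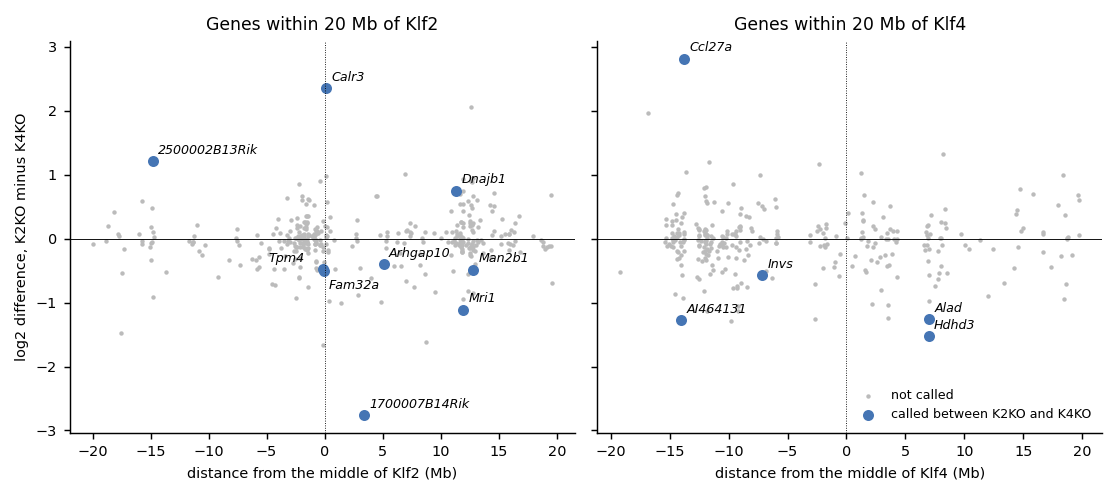
Log2 difference K2KO minus K4KO (y axis) of tested genes against their distance from the middle of Klf2 or Klf4 in Mb (x axis). Genes called between the knockouts are blue, 9 around Klf2 and 5 around Klf4, and their differences point both ways.

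Markers of other cells were measured because beads can carry over their RNA, and in bulk samples fewer cells of a type and less RNA per cell cannot be told apart. Of 19 macrophage and myeloid markers 4 were lower at an unadjusted p below 0.05, against 2.1% of all genes (median -0.35, and -0.53 without control 3), and their summed level was 4855 to 7661 in controls, 3989 to 6025 in K2KO and 4296 to 5924 in K4KO. Erythroid markers had a median of -0.45 (9 tested, 3 lower and 1 higher, against 2.1% and 4.54% of all genes), lymphocyte markers -0.18 (18 tested), platelet markers -0.08 (10 tested), fibroblast markers 0.16 (16 tested) and cardiomyocyte markers 0.15 (22 tested). None of these markers was called. Platelets also hold P-selectin, and the summed platelet markers stood at 947 to 1451 in controls, 1103 to 1493 in K2KO and 937 to 1109 in K4KO. Their part in the Selp result was not tested.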

How the data were processed

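The authors deposited 1 table with a signal per gene and library. In each of the 12 columns used, 100% of the values were whole reads times 1 factor within a tolerance of 0.001, so reads were recovered. Per the submitters' processing notes, TopHat, Cuffdiff and GRCm38 were used, in roles they do not state, and the sources used here name neither the counting tool nor its use of strand. No column was left unmapped. Genes reaching a value of 1 in 4 or more libraries entered limma 3.58.1 (R 4.3.3, eBayes with trend) on log2(value + 1), with 16 libraries in 1 model of 4 group means. That scale understates changes of genes with few reads. P-values were adjusted over all genes within each comparison, and a gene was called below 0.05. The planned test assumed FPKM-like values and was kept, because it suits a normalised unit; edgeR 4.0.16 and DESeq2 1.42.0 on recovered reads were alternatives. Exact permutation tests used SciPy 1.17.1.

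Same-numbered control and K4KO libraries correlated in their deviations from the group means at 0.141 to 0.523 in all 4 pairs. Those numbers were taken as pairs in the replicate block linking control and K4KO, whereas the main test used no pairs. K2KO 2 and K4KO 1, which bear unlike numbers, correlated at 0.603. K2KO column numbers did not pair. No 2 libraries of the same group agreed within sampling noise.

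The comparison, the gene lists and the rule for named genes were chosen with earlier results of these data known. The rule took Klf2 and Klf4, up to 12 largest rises and falls among called genes with separated libraries and a mean of at least 100, the 5 smallest p-values, called genes that also differed between the knockouts, up to 3 members of each list and called neighbours within 150 kb. The method was run on simulated data with independent counts in each library. That simulation held no deviations shared by the genes of a library, so it did not test their effect. Some genes of these sets are not reported here.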

Additional observations from a re-analysis of the deposited data

Results flagged for a closer look

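Each group of 4 libraries was examined for a value far from the other 3, for 40 named genes and the number of genes detected, 123 groups in all. It was found in 16. A chance rate of about 1 in 20 holds for independent groups of genes not chosen by their values. Many of these genes were chosen after their values were seen, and the clock genes moved together in K4KO 4. No excess over chance can therefore be read from the 16. K4KO 4 stood apart in 6 clock genes: Arntl (1322, others 61.2 to 113), Npas2 (184, others 14.3 to 37.6), Nfil3 (303, others 117 to 146), Dbp (601, others 4032 to 4581), Tef (2741, others 12159 to 14023) and Bhlhe41 (172, others 729 to 765). It was also the lowest K4KO library for Cxcl12 (35490, others 40838 to 41312). K4KO 1 stood apart in the number of genes with a read (29602, others 21152 to 21584) and in Scara3 (287, others 321 to 327).

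Control 3 was high for Adamts4 (1166, others 367 to 496), Klf5 (26.6, others 8.48 to 11.4) and Egr2 (1512, others 589 to 686), and control 4 was low for Cxcl12 (46419, others 59515 to 61465). K2KO 4 was high for Sele (2485, others 1956 to 2041) and low for Prg4 (271, others 374 to 380), and K2KO 2 was high for Klf5 (33.4, others 24.0 to 25.4).

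By the limma test of K2KO minus K4KO on the log2 scale, 9 named genes differed between the single knockouts. The targeted Klf2 and Klf4 differed too. Of all genes tested, 0.445% were called in this test. Most of the 9 were named for this difference or after their values were seen, so their number carries no weight. Higher in K2KO were Calr3 (2.36, adjusted p = 0.000143), Tdpx-ps1 (2.53, adjusted p = 0.0162), Gm7809 (3.78, adjusted p = 0.00286) and Adamts4 (1.39, adjusted p = 0.0423). Lower in K2KO were Ankrd6 (-1.47, adjusted p = 7.69e-05), Fam32a (-0.51, adjusted p = 0.0016), Mri1 (-1.11, adjusted p = 0.00204), Man2b1 (-0.48, adjusted p = 0.0441) and AI464131 (-1.28, adjusted p = 0.00181). These values come from the samples already described.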

How the results depend on the processing

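Of 29 alternatives, 5 were chosen after seeing the data: the block linking control and K4KO, leaving out 2 or 3 libraries, and edgeR and DESeq2 on 12 libraries. The 5 pooled calls became 10 with 12 libraries alone, 3 with robust limma without a trend, 13 with library weights, 15 with the replicate block linking control and K4KO, 2 with edgeR, 31 with DESeq2 and 8 with the cardiomyocyte level as covariate. Without K2KO 2, K4KO 1 and K4KO 4 they were 3, and with DESeq2 on 12 libraries 49. Leaving out 1 library gave 2 (without control 2) to 34 (without control 3), with 3 without control 1 and 9 without K4KO 4. A replicate block by column number left 5.

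The 106 calls between K2KO and K4KO became 38 with robust limma, 57 with the replicate block by column number, 296 with DESeq2, 301 with DESeq2 on 12 libraries, 30 without K2KO 2 and K4KO 1, and 46 without K4KO 4 as well. Leaving out 1 library gave 54 to 211. The causes were not tested.

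Klf2 and Klf4 were not called in the pooled comparison under any of the 29 alternatives (-0.44 to -0.13 and -0.28 to -0.03). None of the 40 genes described by value changed sign, but they are a selected set, since genes that did were left undescribed. In the whole sets, 4 of 21 clock genes (each within 0.08 of 0) and 4 of the 8 genes around Sele (Kifap3, Mettl18, BC055324 and Gm16587, at most 0.39 from 0) changed sign in at least 1 alternative. Genes with few reads carry a large counting error, since 1 read was worth up to 1.46 scaled counts. The medians of the known targets and of the platelet markers turned to 0.0048 and 0.0069 without K2KO 2 and K4KO 1, and the latter to 0.0127 without K4KO 4 as well. The cell cycle median also turned, to between -0.0042 and -0.0010, with edgeR and DESeq2 on 16 or 12 libraries.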
